A study of Mus musculus with 250 samples.

Results

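The upper follicle-gated cells were 51 of the 250 single cells of the study (20.4%, exact 95% Clopper-Pearson interval 15.6 to 25.9%). They were chosen by their own expression. In each cell, counts were scaled to 10000 reads and taken as log2(value + 1), here called the log2 level, and each gene was centred on its mean over the 250 cells. Averages were then formed for 6 upper follicle genes (Krt79, Cst6, Defb6, Plet1, Krt17 and Aqp3), 6 basal genes (Krt5, Krt14, Krt15, Col17a1, Itga6 and Itgb4) and 5 suprabasal genes (Krt1, Krt10, Krtdap, Dsg1a and Mt4). A cell was a member when its upper follicle average was the highest of them. By the same gate, 128 cells were basal and 71 suprabasal. The values of these 17 genes are therefore a description of the choice, and so is every contrast between the members and the other 199 cells.

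All cells came from tail epidermis of Lrig1CreER/Rosa-TdTomato mice, in which a red fluorescent protein is switched on permanently in cells that use the Lrig1 promoter and is kept by their descendants. The labels give a time of 8 weeks, with a further abbreviation that is not spelled out, and a sort for labelled cells with Sca1, the protein made from Ly6a, on their surface. Single cells were sequenced by Smart-Seq2, a full-length method without molecular identifiers, with 84 from a control region, 81 from a region labelled distal memory and 85 from the wound bed, and with 1 plate per region in each of 2 batches. As no animal is named in the labels, a region counts as 1 sample and no test was run, and region and plate cannot be told apart within a batch.

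The upper hair follicle comprises the infundibulum, which opens to the skin surface, and the junctional zone beneath it, where the sebaceous duct enters. Lrig1-expressing stem cells sit there and maintain the infundibulum and the sebaceous gland, and after wounding their descendants can move into the interfollicular epidermis. Krt79 is a keratin of the cells that line the follicle opening and the sebaceous duct, Cst6 encodes cystatin E/M, an inhibitor of cysteine proteases in the cornifying epidermis, and Defb6 a beta-defensin. Plet1 encodes a surface glycoprotein of the junctional zone, Krt17 a keratin of skin appendages, and Aqp3 a channel for water and glycerol.

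The sequences before 4 of the 6 upper follicle gate genes are shown because the gate was built on these genes. They are the 4 with an entry in the RefSeq promoter table (GRCm38.p6), and Cst6 and Krt17 are named only. The 250 bases before the start are printed 5′ to 3′ on the gene's strand for Krt79 (chr15:101940325-101940574, minus strand), Defb6 (chr8:19225228-19225477, plus strand), Plet1 (chr9:50494275-50494524, plus strand) and Aqp3 (chr4:41098184-41098433, minus strand). Capitals mark matches, searched on both strands, to 3 motifs: TATAAA (the TATA box), AGATAA (bound by GATA factors) and TGANTCA (bound by AP-1). The matches did not overlap each other.
Krt79: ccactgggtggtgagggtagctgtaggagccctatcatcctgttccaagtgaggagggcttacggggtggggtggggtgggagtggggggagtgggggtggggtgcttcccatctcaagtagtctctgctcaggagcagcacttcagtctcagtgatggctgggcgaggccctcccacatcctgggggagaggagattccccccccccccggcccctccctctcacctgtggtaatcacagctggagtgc
Defb6: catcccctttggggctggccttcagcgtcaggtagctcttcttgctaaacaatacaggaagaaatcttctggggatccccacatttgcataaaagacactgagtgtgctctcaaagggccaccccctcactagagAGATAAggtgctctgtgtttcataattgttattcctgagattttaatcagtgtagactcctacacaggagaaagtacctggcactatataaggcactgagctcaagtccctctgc
Plet1: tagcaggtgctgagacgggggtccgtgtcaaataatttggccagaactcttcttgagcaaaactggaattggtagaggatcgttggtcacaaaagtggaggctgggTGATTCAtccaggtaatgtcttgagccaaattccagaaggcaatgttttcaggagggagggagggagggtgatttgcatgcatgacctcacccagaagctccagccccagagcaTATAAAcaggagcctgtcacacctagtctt
Aqp3: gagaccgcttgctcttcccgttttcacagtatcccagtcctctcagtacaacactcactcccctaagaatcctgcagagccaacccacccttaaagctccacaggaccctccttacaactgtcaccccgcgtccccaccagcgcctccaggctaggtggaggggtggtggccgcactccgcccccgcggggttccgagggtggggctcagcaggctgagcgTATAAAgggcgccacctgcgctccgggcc
The AGATAA match began 115 bases before the start of Defb6. In Plet1, TGANTCA began 144 bases and TATAAA 30 bases before the start, and in Aqp3, TATAAA began 29 bases before it. The window of Krt79 held none of these motifs. Over 32851 promoters of the same length, 12.4% held TATAAA, 9.99% AGATAA and 6.75% TGANTCA. A match is a description of the letters and not a binding site.

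The gate was clear for most members and weak for a few. The margin of the upper follicle average over the next average ran from 0.01 to 4.26 with a median of 2.0. Just inside the cut, 3 members had a margin below 0.25, and just outside it 6 other cells lay within 0.25, the nearest at −0.08. Reads of all 6 upper follicle genes were found in 16 members, of 5 in 20 and of 4 in 8. A class cut from such averages is a range of cells and not a sharply bounded type.

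**Figure D1:**
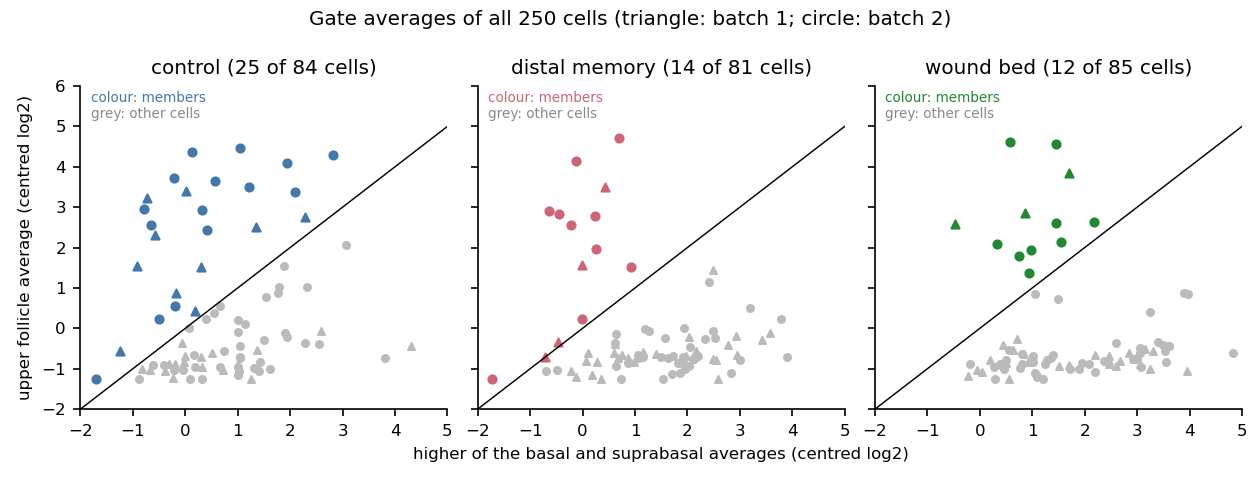
Upper follicle average of every cell (vertical axis, centred log2) against the higher of its basal and suprabasal averages (horizontal axis, centred log2), by region. Members lie above the diagonal: 25 control, 14 distal memory and 12 wound bed cells.

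Among the members, 5 had an upper follicle average of 0 or below and met the gate only because their other averages were lower still. A control cell of batch 2 (113323 reads) had no reads of the 6 genes, and repeat-like predicted genes took 96.8% of its non-mitochondrial reads. A distal memory cell of batch 2 (15227 reads) had no reads of any of the 17 gate genes. It held Ptprc, the pan-leukocyte antigen CD45, at 37.4 counts per 10000, Cd52 at 19 and Thy1 at 2.63. A control cell of batch 1 held the hair keratin gene Krt35 at 160.04 counts per 10000 and had reads of Krt36. The others were 2 distal memory cells of batch 1 with reads of 1 and 2 upper follicle genes. Repeat-like genes took over 5% of these reads in 9 members (called repeat-rich), all of them control cells, 6 of 10 in batch 1 and 3 of 15 in batch 2. These cells are named again beside results that move without them.

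Members had 8621 to 1703213 reads (median 63359) and a median of 1871 detected genes, against medians of 47047 reads and 1789 genes in the other cells. In batch 1, the deepest distal memory member held 76.8% of the reads of its plate's 4 members, so sums over that plate are largely the profile of a single cell. Reads are not independent molecules, and all intervals cover counting error only.

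Upper follicle-gated cells made up 25 of 84 control cells (29.8%, 20.3 to 40.7%). In distal memory they were 14 of 81 (17.3%, 9.78 to 27.3%), and in the wound bed 12 of 85 (14.1%, 7.51 to 23.4%). By plate, batch 1 first, they were 35.7% and 26.8% of control cells, 12.5% and 20.4% of distal memory cells, and 10% and 16.4% of wound bed cells. The control share was the highest in both batches, and the intervals of all 3 regions overlapped. With the repeat-rich cells left out the shares were 26.7%, 17.9% and 14.3%. These are shares within a Sca1 sort, which can itself set them.

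The gate genes separated the members unevenly. Krt79 had reads in 44 of 51 members and 22 of 199 other cells, and its level in the members ran from 0 to 359 counts per 10000 with a median of 50.5. Defb6 had reads in 46 members (median 118, highest 707) and 60 other cells. Cst6 had reads in 44 members and 80 others, Krt17 in 37 and 41, and Plet1 in 26 and 31. Aqp3 did not separate the groups: it had reads in 82.4% of members and 82.9% of other cells, with mean log2 levels of 1.51 ± 1.31 (SD over 51 cells) and 1.88 ± 1.34 (SD over 199 cells). It was read in 66 of 71 suprabasal-gated cells. A gate without Aqp3 held 49 of the 51 members.

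By these gate genes, separation was sharpest in the wound bed, where the lowest upper follicle average of a member was 1.37. The weak members, with an average of 0 or below, were all control or distal memory cells. Regions were not compared here without them. All 12 wound bed members had reads of Krt79 (5.46 to 137 counts per 10000, median 35.7), Cst6 and Defb6, while 4 of 73 other wound bed cells had reads of Krt79. Krt17 had reads in 11 of 12 wound bed members and 6 of 73 other wound bed cells. In control skin the genes reached further outside the gate. There Krt79 had reads in 22 of 25 members and 14 of 59 others, and Krt17 in 17 of 25 and 19 of 59. In distal memory, Krt79 had reads in 10 of 14 members and 4 of 67 others.

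Several upper follicle markers that the gate did not use were read more often in the members. Nebl, which encodes the actin-binding protein nebulette, had reads in 35 of 51 members and 16 of 199 other cells (68.6% and 8.04%). Sox9, a transcription factor of the follicle's outer root sheath, had reads in 64.7% of members and 28.6% of others. Gata6, a transcription factor of the sebaceous duct, had reads in 19 of 51 members (37.3%, 24.1 to 51.9%) and 19 of 199 others (9.55%). In cells thinned to 10000 reads, which left out 1 member and 11 other cells, the shares were 24% and 4.79% for Gata6 and 50% and 4.26% for Nebl.

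Other markers of that list were level or lower in the members. Sostdc1, an inhibitor of BMP and Wnt signalling, had reads in 49.02% of members and 52.8% of others, and Ptn, a secreted growth factor, in 27.5% and 41.7%. Lgr6, a receptor of stem cells above the bulge, had no reads in the members (a limit of 3 counts of 51 allows up to 5.88% of cells with reads) and had reads in 7 of 199 other cells.

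Lrig1 itself was sparse. It had reads in 11 of 51 members (21.6%) and 22 of 199 others (11.1%), and in 8 of 25 control, 3 of 14 distal memory and 0 of 12 wound bed members. Among the other wound bed cells it had reads in 1 of 73. A limit of 3 counts of 12 allows up to 25% of wound bed members with reads, and the interval in control members was 14.9 to 53.5%, so a difference was not detectable at this depth. The lineage label records past use of the promoter and needs no present Lrig1 RNA.

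Ly6a, the gene of the sorted surface protein, was read less often in the members than in the other cells. It had reads in 13 of 51 members (25.5%, 14.3 to 39.6%) and 120 of 199 others (60.3%, 53.1 to 67.2%), or 16% and 52.1% in cells thinned to 10000 reads. By region it had reads in 5 of 25 control members and 37.3% of other control cells, and in 5 of 14 and 55.2% in distal memory. In the wound bed it had reads in 3 of 12 members and 61 of 73 other cells, the widest of the 3 gaps.

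Fst, which encodes follistatin, a secreted inhibitor of activin, stood out in wound bed members. It had reads in 9 of 12 of them (75%, 42.8 to 94.5%) and 2 of 73 other wound bed cells (2.74%). In control skin it had reads in 10 of 25 members and 19 of 59 others, and in distal memory in 4 of 14 and 13 of 67. Gata6 had reads in 5 of 12 wound bed members and 1 of 73 other wound bed cells, against 10 of 25 and 13 of 59 in control. The difference between regions in these contrasts was not tested.

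**Figure D2:**
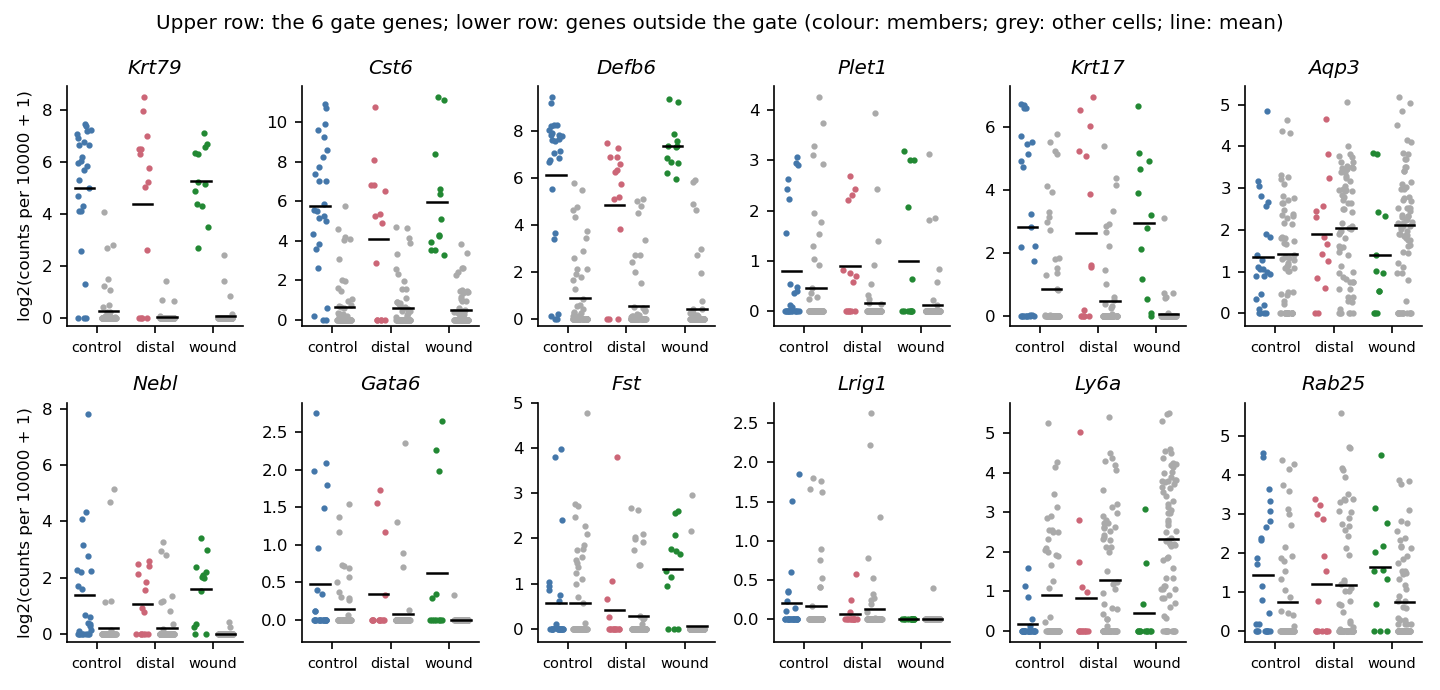
Log2 level of 12 genes in each cell, by region, with members in colour and other cells in grey. Krt79, Cst6 and Defb6 lie high in the members of each region, Aqp3 covers a like range in both groups, and Fst has reads in 9 of 12 wound bed members.

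Beyond the gate genes, members differed from the other cells of their plate in a small set of genes. Of 2971 genes with reads in at least 25% of the members or of the other cells, 16 (0.539%) were higher and 15 (0.505%) lower in the members, by at least 0.5 in mean log2 level in each of the 4 plates with 5 or more members. The median difference over all 2971 was −0.02. These counts follow from a gate cut on the same cells and describe it. With the repeat-rich cells left out they were 37 and 22.

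Genes higher in the members included barrier and differentiation genes. Lratd1 had the largest least difference over the 4 plates, 1.66, with reads in 90.2% of members and 59.8% of others (mean log2 level 3.76 ± 1.93, SD over 51 cells, against 1.74). Spink5, which encodes the kallikrein inhibitor LEKTI, had reads in 60.8% and 20.1%, and Cstb, a cysteine protease inhibitor, in 92.2% and 79.4%. They were 2 of the 9 considered protease inhibitor genes, and none of the 9 met the rule downwards. Skint3, of an epidermal family that shapes resident T cells, had reads in 50.98% and 11.6%. With Calm4, a calcium-binding protein of differentiating keratinocytes, and Lgals7, which encodes galectin-7, it made 3 of 9 considered suprabasal genes outside the gate. Of 11 considered upper follicle genes outside the gate, Nebl met the rule. Sdr16c6, Ptgr1, Gltp, Tmsb4x, Emp2 and Dbi were also among the 12 named by rank. Of the 199 other cells, 128 were basal-gated, and values of the suprabasal-gated cells alone are not given here. This limit holds for the lower genes below as well. Calm4 had reads in 26 of 28 members whose next-highest average was suprabasal and 14 of 23 whose next was basal. Spink5 had reads in 22 and 9 of them, Skint3 in 16 and 10, and Lgals7 in 28 and 21.

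Genes lower in the members included genes of attached basal cells. Dst, which anchors keratin to hemidesmosomes, had reads in 43.1% of members and 84.9% of others, with mean log2 levels of 0.62 and 2.36. Dst, the metallothionein gene Mt1 and the caveolin gene Cav1 were 3 of 8 considered basal genes outside the gate, and all 8 had a lower mean. Postn, a matrix protein, and Gas1, a hedgehog co-receptor, were 2 of 3 considered bulge and hair germ genes. Fth1, the ferritin heavy chain, had reads in 47.1% of members and 92.5% of others, with differences from −1.06 to −2.54 over the plates. Slc6a6, the taurine transporter, had reads in 13.7% and 68.3%. The nucleolar protein genes Npm1 and Ncl were also lower, with S100a10, Ube2d3 and Tspan3.

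**Figure D3:**
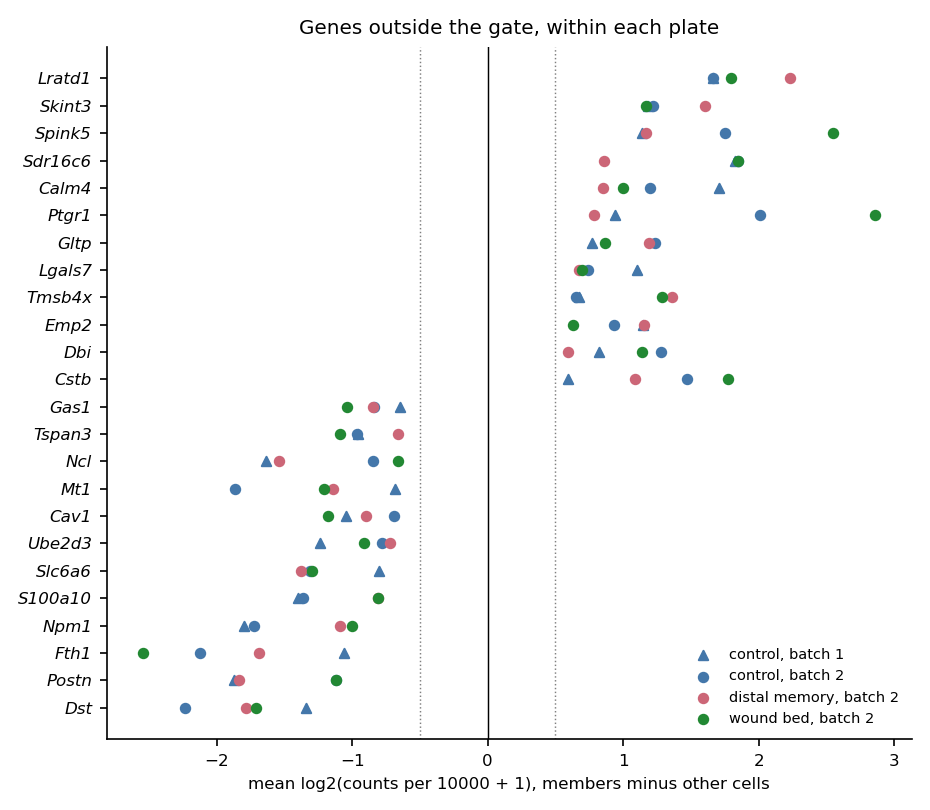
Difference in mean log2 level between members and other cells of the same plate (horizontal axis) for the 24 named genes, with 1 point for each of 4 plates. All points of a gene lie on 1 side, from Lratd1 (1.66 to 2.23) to Dst (−1.34 to −2.23).

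Markers of other cell types were at or near 0 in most members. None of the 3 Merkel cell genes in the table had reads in a member. Melanocyte genes (1 of 5) had reads in 2 members (summed level at most 0.22 counts per 10000), endothelial and muscle genes (2 of 5) in 3 (at most 0.13) and fibroblast genes (2 of 6) in 7, with Col1a1, Col1a2 and Pdgfra at 0. The highest fibroblast sums were 0.39 in control, 0.06 in distal memory and 3.64 in wound bed members. Immune genes (5 of 9) had reads in 5 members, with highest sums of 0.71, 61.1 and 1.36 in the same order, the 61.1 in the cell with Ptprc. Inner root sheath and hair genes (3 of 7) had reads in 3 members, with a highest sum of 180.1 in the control cell with Krt35. Over the 46 members with an upper follicle average above 0, the highest immune sum was 2.17 and the highest hair sum 0.64.

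Genes of neighbouring follicle compartments were present at low levels. Of the bulge and hair germ list, 10 of 13 genes had reads in members, with Cd34, Fgf18 and Npnt at 0, and the median sum was 0.71 against 3.96 in the other cells. Of the sebaceous list, 10 of 11 genes had reads, with Mc5r at 0, and the median sum was 7.12 against 5.42. By region, the members' sebaceous sums had medians of 8.26 in control, 5.32 in distal memory and 11.02 in the wound bed, with highest values of 21.9, 55.4 and 65.2. The part of these lists in the differences between regions was not tested.

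Members varied among themselves along the basal to suprabasal axis. The next-highest average was basal in 23 and suprabasal in 28, and 21 members had both averages below 0. Most members with an upper follicle average of 0 or below fell on the basal side. Among them was the cell with Ptprc, which had no reads of the basal gate genes. The counts below include these cells. Outside the gate genes, Ly6g6c had reads in 23 of the 28 members on the suprabasal side and 8 of the 23 on the basal side. Sprr1a, a cornified envelope precursor, had reads in 21 and 4, and Klk7, a kallikrein protease of corneocyte shedding, in 13 and 3. Elovl4, an enzyme of very long chain fatty acids, had reads in 13 and 0. On the basal side, Ptn had reads in 13 of 23 members against 1 of 28, and Aldh3a1, an aldehyde dehydrogenase, in 19 against 13.

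The genes most like the upper follicle average over the 51 members were Rab25 (Spearman rho 0.80), a small GTPase of epithelial membrane traffic, Ly6g6c (0.72) and Prdx5 (0.72), a peroxiredoxin. Those that ran most against it were Gas5 (−0.52), Fth1 (−0.49) and Mt2 (−0.47). Cells of a plate share their preparation, and all values share the scaling to total reads. The rho with reads per cell was 0.08 for Rab25 and −0.12 for Fth1.

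The 3 regions overlapped along that axis, which the gate itself used. The suprabasal average was next in 13 of 25 control, 5 of 14 distal memory and 10 of 12 wound bed members. Its median by batch, batch 1 first, was −0.98 and 0.31 in control, −1.40 and −0.17 in distal memory, and 0.87 and 0.98 in the wound bed. The median of distal memory was thus the lowest and that of the wound bed the highest in both batches. The control range, −2.54 to 2.82, contained those of distal memory (−2.54 to 0.92) and the wound bed (−1.28 to 2.19).

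Region comparisons within the members were called on batch 2, because the distal memory and wound bed plates of batch 1 held 4 and 3 members. Genes were considered if reads were present in 25% or more of the members of either region. It was called when the log2 ratio of summed, TMM-scaled CPM + 1 (CPM is counts scaled to a common library total) was at least 1 in size and the mean log2 level differed by at least 0.5 in the same direction. The 3 comparisons share samples. Where a side had no reads, the log2 ratio depends on the 1 CPM added and is no bound. With total-count scaling the ratios of batch 2 shifted by 0.31, 0.20 and 0.11 in the order below, those of batch 1 by 0.16, 1.27 and −1.11, and no call took the opposite direction. Distal memory against control gave 236 of 3962 genes higher (5.96%) and 260 lower (6.56%). Wound bed against control gave 396 of 3770 higher (10.5%) and 349 lower (9.26%). Distal memory against the wound bed gave 434 of 3690 higher (11.8%) and 522 lower (14.1%).

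Most of these differences did not recur in batch 1. Of the called genes with reads there, the mean log2 level differed in the same direction in 55.8%, 49.7% and 46.96%, in the order above, against 50.8%, 52.7% and 50.6% of all considered genes. The size was met again by 71, 116 and 159 genes. Within a single region, control members of batch 1 against those of batch 2 gave 153 of 3625 genes higher (4.22%) and 419 lower (11.6%). Values below are given with batch 2 first and batch 1 second, with the number of cells behind many of them but not all. Some values printed without cell numbers rest on few cells.

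**Figure D4:**
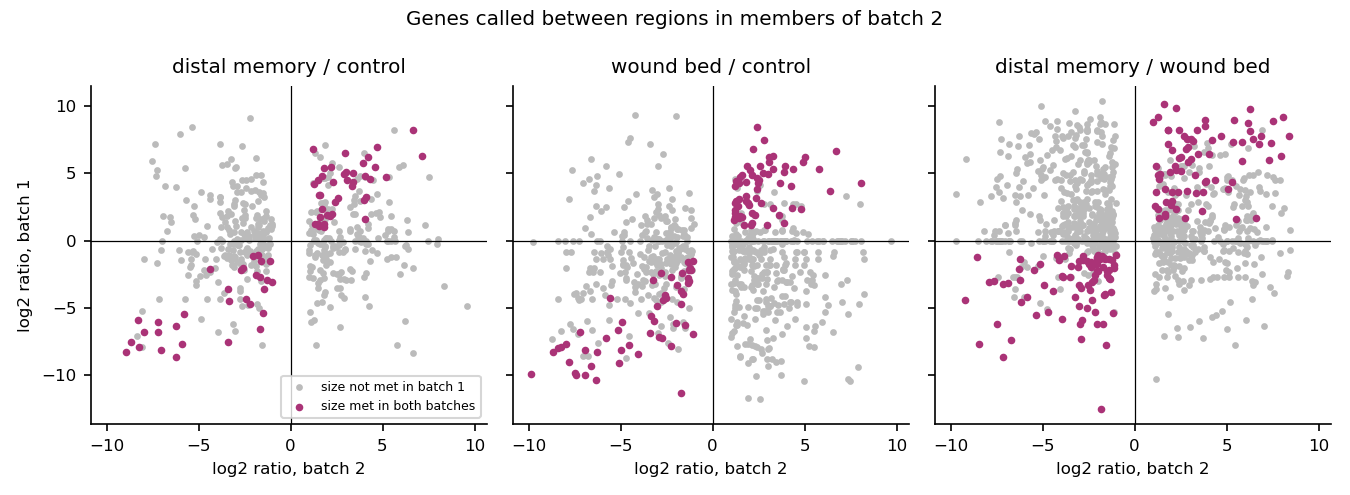
Log2 ratio between regions in batch 2 (horizontal axis) and batch 1 (vertical axis) for each gene called in members of batch 2, by comparison. The points fill all 4 quadrants, and 71, 116 and 159 genes met the size in both batches.

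Some suprabasal and upper follicle genes of the gate were lower in distal memory than in control members in both batches, which describes the chosen cells. Krt10, the main keratin of suprabasal cells, ran from 0 to 38.6 counts per 10000 (median 8.60) in the 10 distal memory members of batch 2 and from 0 to 317 (median 30.6) in the 15 control members. In batch 1, the 4 distal memory members lay between 0.423 and 1.16, and the 10 control members ran from 0 to 355 (median 0.859). The groups overlapped in both batches, and the log2 ratios of the sums were −3.40 and −7.50. Cst6 gave −1.69 and −2.72 and Defb6 −1.62 and −1.52. Krtdap, a secreted peptide of differentiating keratinocytes, gave −1.04 and −3.11, but with total-count scaling its batch 2 value was −0.72, below the size used. Klf4, a transcription factor of epidermal differentiation, had reads in 3 of 10 and 9 of 15 members of batch 2 and gave −2.67 and −2.18. All of these but Klf4 are gate genes. Of 10 considered suprabasal genes outside the gate, Ivl and Klk7 were called lower in batch 2 and none higher. Over all considered genes 6.56% were lower and 5.96% higher. The list median was −0.47, near the −0.33 over all considered genes. Klk7 gave −5.77 and −4.31, with reads in 2 of 10 and 5 of 15 members of batch 2. In batch 1 it had reads in 0 of 4 and 1 of 10, so that value rests on 1 control cell and the 1 CPM added. Its size was not met there. Ivl (−5.30 and 1.88), which encodes involucrin, and Sprr1a (−5.74 and 5.41), also called lower, had summed ratios of the other sign in batch 1.

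Malat1, an abundant nuclear long noncoding RNA, was higher in distal memory than in control members in both batches. It had reads in 8 of 10 distal memory members of batch 2 (median 47.4, highest 244 counts per 10000) and 3 of 15 control members (median 0, highest 17.9). In batch 1 it had reads in 4 of 4 (0.697 to 77.7) and 8 of 10 (median 0.862, highest 18.7). The groups overlapped, and the log2 ratios were 5.17 and 4.72. Outside the gate the order was the same, with mean log2 levels of 3.48 in other distal memory cells and 1.41 in other control cells. Without the 5 weak members the batch 2 log2 ratio was 5.27.

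Aldh3a1 had a median of 4.45 counts per 10000 in distal memory members of batch 2 (7 of 10 with reads) and 0.0424 in control members (8 of 15). In batch 1 the medians were 5.42 (4 of 4) and 0.271 (7 of 10), and the log2 ratios were 1.61 and 1.73. Thinned to 10000 reads, the batch 2 value was 0.91, below the size used. Clca3a2, of a family that modulates chloride channels, gave 1.80 and 1.04, and Dst gave 3.37 and 4.33 with reads in 4 of 10 and 3 of 15 members of batch 2.

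Genes named by rank in this comparison were often carried by a few cells. Elk4, an ETS transcription factor, had reads in 4 of 10 distal memory and 0 of 15 control members of batch 2, at least 44.9-fold higher from a floor of 3 counts over the control members. Pds5a, a cohesin regulator, had reads in 8 of 10 and 4 of 15 and gave 4.61 and 5.45. Epha4, an ephrin receptor, had 3 reads in 2 of 10 distal memory members and 1182 in 6 of 15 control members, 176-fold lower (counting interval 59.9 to 853).

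Ly6a and Ly6e, a related gene, were called higher in distal memory than in control members of batch 2 (log2 ratios 6.41 and 0.64 for Ly6a and 2.50 and −3.54 for Ly6e, which stood the other way in batch 1). The cell with Ptprc held Ly6a at 31.5 and Ly6e at 23 counts per 10000, and without the 5 weak members neither met the rule. Gata6 and Fst were called lower, with reads in 1 of 10 and 1 of 10 distal memory members of batch 2 against 9 of 15 and 8 of 15 control members. In batch 1 both stood the other way, with reads in 3 of 4 and 3 of 4 against 1 of 10 and 2 of 10.

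Klk7 was higher in wound bed than in control members in both batches. It had reads in 6 of 9 wound bed members of batch 2 (median 4.35, highest 138 counts per 10000) and 5 of 15 control members (median 0, highest 115). In batch 1 it had reads in 2 of 3 and 1 of 10, and the log2 ratios were 1.41 and 4.31. Thinned to 10000 reads the batch 2 value was 0.79, below the size used. Outside the gate it had reads in 2 of 73 wound bed and 5 of 59 control cells. Ifitm3, an interferon-induced membrane protein, had reads in 7 of 9 and 2 of 15 members of batch 2 and 1 of 3 and 2 of 10 of batch 1, with log2 ratios of 2.62 and 2.77.

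Some detoxification genes were lower in wound bed than in control members. Of 10 considered glutathione and xenobiotic genes, 5 were called lower and none higher in batch 2 (9.26% of all considered genes were lower), with a list median of −2.15 beside −0.49 over all considered genes. Of the 5, Gstm1 and Aldh3a1 met the size in batch 1 too. Gstm1, a glutathione transferase, had a median of 0.534 and a highest level of 2.77 counts per 10000 in the 9 wound bed members, against 1.36 and 53.99 in the 15 control members. In batch 1 it had reads in 1 of 3 and 7 of 10, and the log2 ratios were −3.26 and −2.90. Aldh3a1 gave −2.27 and −2.73, with reads in 1 of 3 wound bed members of batch 1. With the repeat-rich cells left out it no longer met the rule. Gstm5 gave −2.25 and −1.73 and Ahr −3.32 and −3.27, with batch 1 differences in mean log2 level of only −0.27 and −0.06. They had reads in 2 and 1 of 3 wound bed members of batch 1. Gstm2 stood the other way in batch 1 (−6.63 and 0.48). Outside the gate Gstm1 had mean log2 levels of 0.27 in wound bed and 1.88 in control cells. Gstm genes are close paralogs, between which reads can be misassigned.

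Cav1 gave log2 ratios of −4.96 and −8.16 in wound bed against control members, with reads in 2 of 9 and 4 of 15 members of batch 2. In batch 1 it had reads in 0 of 3 and 3 of 10, so that value depends on the 1 CPM added. Bmpr1a, a BMP receptor, gave −1.95 and −3.27 with reads in 3 of 9 and 10 of 15 members of batch 2. In batch 1 Bmpr1a had reads in 1 of 3 and 6 of 10. Among genes named by rank, Yy1, a transcription factor, had 144 reads in 3 of 9 wound bed members and 2 in 1 of 15 control members, a ratio of 176 (counting interval 47.9 to 1468). Acot9, a mitochondrial thioesterase, had no reads in the wound bed members and 1270 in 6 of 15 control members, at least 173-fold lower.

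Other wound bed calls had log2 ratios of the other sign in batch 1. The log2 ratios were 3.02 and −5.30 for Mt1, 7.37 and −5.47 for Mt2, 1.17 and −6.75 for Krt5, 5.59 and −6.33 for Ly6a and −2.89 and 1.87 for Krt17. Mt1 had reads in 5 of 9 wound bed and 4 of 15 control members of batch 2, and in 0 of 3 and 2 of 10 of batch 1. Mt2, Krt5 and Ly6a also had reads in 0 of 3 wound bed members of batch 1, and in 1, 4 and 4 of 10 control members. The negative batch 1 ratios therefore depend on the 1 CPM added and on few cells. Mki67, a marker of cycling cells, had reads in 3 of 9 and 0 of 15 members of batch 2 and in 0 of 3 and 1 of 10 of batch 1.

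Between distal memory and wound bed members, several differentiation genes were lower in distal memory and others were not. Of 9 considered suprabasal genes outside the gate, Klk7 was called lower (14.1% of all considered genes were) and Lgals7 and Ptgs1 higher (11.8%), with a list median of 1.09. Lgals7 (1.13 and −0.99) and Ptgs1 (4.19 and −5.68) stood the other way in batch 1, where Ptgs1 had reads in 0 of 4 and 1 of 3 members. The gate gene Krt10 had medians of 8.60 and 80.04 counts per 10000 in batch 2 and 0.637 and 30.4 in batch 1, with log2 ratios of −2.87 and −5.89. Klk7 had reads in 2 of 10 and 6 of 9 members of batch 2 and in 0 of 4 and 2 of 3 of batch 1 (−7.17 and −8.62). Spink5, whose product inhibits such kallikreins, gave −1.19 and −5.35, with medians of 2.52 and 9.50 in batch 2. Sprr1a (−6.22 and −1.39), the protease inhibitor gene Stfa3 (−3.24 and −4.22) and Fabp5, a fatty acid binding protein (−2.92 and −7.32), ran the same way. In distal memory members of batch 1, Sprr1a and Stfa3 each had reads in 2 of 4 and Fabp5 in 1 of 4. Stfa and Sprr genes have close copies that can split reads, so their values are uncertain.

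Some basal genes ran the other way. Krt14, the main keratin of basal cells, had medians of 25.1 and 13.4 counts per 10000 in distal memory and wound bed members of batch 2 and of 14.8 and 2.95 in batch 1, with log2 ratios of 1.14 and 3.59. Thinned to 10000 reads the batch 2 value was 0.76. Postn had reads in 3 of 10 and 0 of 9 members of batch 2, at least 63.3-fold higher in distal memory, and in 3 of 4 and 1 of 3 of batch 1. Aldh3a1 gave 3.88 and 4.46 and Clca3a2 3.06 and 6.03, each with reads in 1 of 3 wound bed members of batch 1. Krt5 differed in sign between the batches (−1.04 and 7.77), with reads in 4 of 4 and 0 of 3 members of batch 1.

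**Figure D5:**
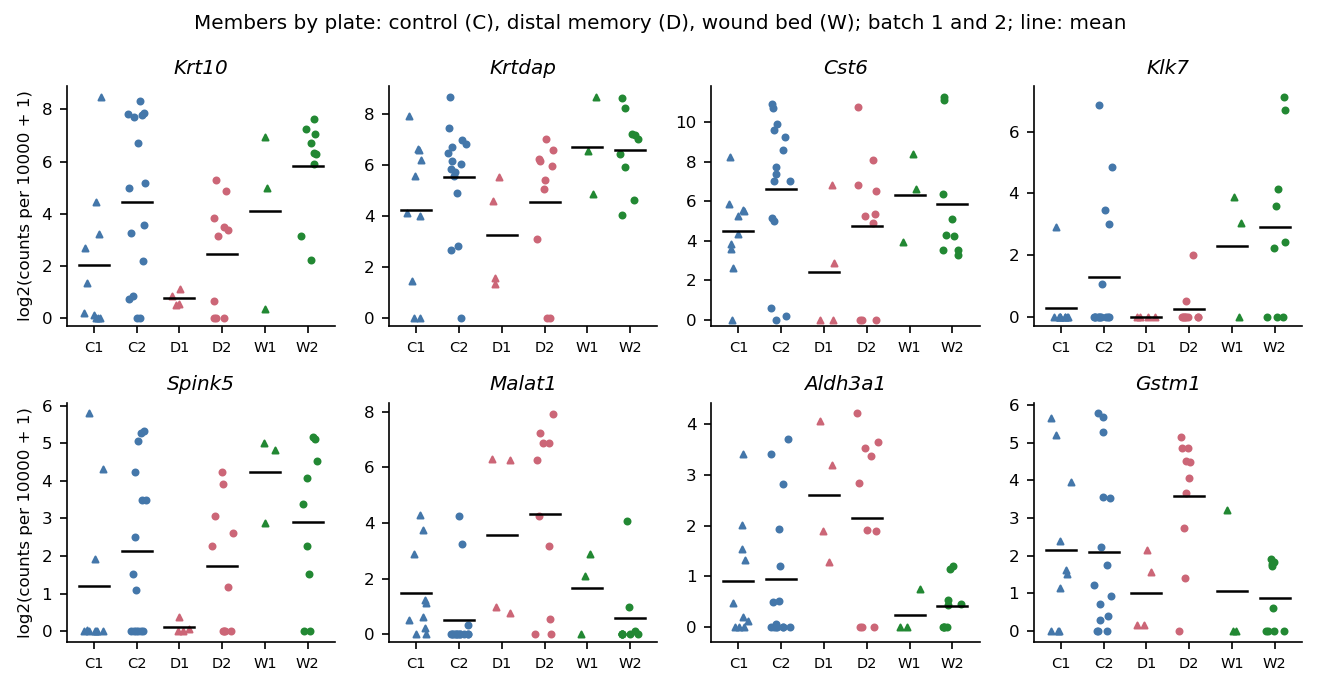
Log2 level of 8 genes in each member, by plate (horizontal axis: control, distal memory and wound bed, batches 1 and 2), with the plate mean as a line. Krt10 means are 2.05 and 4.47 in control, 0.76 and 2.47 in distal memory and 4.09 and 5.84 in the wound bed.

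Signalling genes were counted in batch 2 as well. Of the Notch genes, 5, 2 and 5 were considered in the 3 comparisons, in the order above, and none was called. Among Wnt genes none of 8 was called between distal memory and control members, beside 5.96% higher and 6.56% lower of all considered genes. In wound bed against control members 1 of 6 was called in each direction, Sfrp1 higher and Fzd7 lower (10.5% and 9.26% of all), and in distal memory against wound bed members 1 of 9 in each direction, Fzd7 higher and Sfrp1 lower (11.8% and 14.1%). Of 4 considered BMP and TGF-beta genes in each comparison, Fst was called lower in distal memory than in control members. Bmp7 and Bmpr1a were lower in wound bed than in control members. In distal memory against wound bed members Bmpr1a was higher, and Fst and Sostdc1 lower. Of the immediate early genes, Klf4 was called lower in distal memory than in control members (1 of 5), none of 6 was called between wound bed and control members, and Klf6 was higher and Klf4 lower in distal memory than in wound bed members (of 4). Egfr, of the EGF receptor genes, was called higher than in control in distal memory (1 of 3) and wound bed members (1 of 4). Its batch 1 log2 ratios were −0.60 and −4.09. None of 3 EGF receptor genes was called between distal memory and wound bed members. Of these signalling and immediate early calls, those of Klf4, and that of Bmpr1a in wound bed against control members, met the size in batch 1 too.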

How the data were processed

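Single-cell Smart-Seq2 libraries of 250 cells from 3 regions and 2 batches were analysed. The authors deposited 1 table of raw counts per gene and cell (27003 genes). Per the submitters' processing notes, Salmon 0.13.1, Seurat and R 4.0.3 were used with mm10 (GRCm38), and how whole-number counts were obtained is not given in the sources used here. Cells were placed in regions and batches by the labels.

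From these counts, levels per 10000 reads and their log2 (pseudocount 1) were computed for each cell with Python 3.11.15 and pandas 2.3.3, and counts were summed over the members of each plate and scaled by TMM in edgeR 4.0.16 (R 4.3.3). Shares have exact 95% Clopper-Pearson intervals. No test was run, because each region is 1 sample. Genes were called by size alone. On simulated counts the rules were checked for the direction of calls only, with no limit set on calls among unchanged genes. No doublet caller was run.

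The members and gene lists were chosen with earlier results of these data known. Up to 12 genes each way were named against other cells by their smallest difference over plates. Up to 10 each way were named between regions by the smaller of the batch ratios, and not all are printed. Genes of the lists, the gate and the sort could also be named. Genes named for likeness to the gate average, or for the basal and suprabasal sides, were picked after their values were seen. Total-count scaling, other pseudocounts and detection limits, thinning, a minimum margin and leaving out cells were tried as alternatives.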

Additional observations from a re-analysis of the deposited data

How the results depend on the processing

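Under the 7 other gates and cell selections tried, the member share lay between 26.7% and 34.5% in control, 13.6% and 17.9% in distal memory and 14.1% and 15.3% in the wound bed. Members against other cells gave 59 genes with repeat-rich cells left out, in place of 31. Requiring the size in batch 1 as well, a choice made after seeing the data, left 71, 116 and 159 genes for distal memory against control, wound bed against control and distal memory against wound bed. All other counts of calls stayed within 1.5 times. The split of calls moved: wound bed against control gave 526 higher and 357 lower in cells thinned to 10000 reads, 538 and 331 without the deepest member of each plate, and 408 and 485 with repeat-rich cells left out. Distal memory against control gave 233 and 392 without those cells, and 244 and 315 with only members whose upper follicle average was above 0, also a choice made after seeing the data. Of the alternative values of named genes, 1313 kept direction and size and 79 kept direction but fell short of the size. Calls on batch 1 alone were not run, since its smallest plate held 3 members. No paired analysis was possible because each region counts as 1 sample, since the labels name no animal; regions were compared within a batch instead.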
